A study of Mus musculus with 6 samples.

Results

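The Notch genes followed in the mouse retina were these: the ligand genes Dll1, Dll4, Jag1 and Jag2, the receptor genes Notch1, Notch2, Notch3 and Notch4, and the target genes Hey1 and Heyl. They were taken by gene symbol, and all 10 were among the 22173 genes listed. RNA of whole retina at postnatal day 17 was sequenced in 6 libraries of wild-type C57BL/6J pups, 3 Control and 3 with oxygen-induced retinopathy (OIR). Control pups stayed in room air from day 7 to day 17. OIR pups breathed 75% oxygen from day 7 to day 12 and room air again until day 17, a treatment that first removes retinal capillaries and is followed by hypoxia and abnormal vessel growth. Whether each library came from its own animal is not stated in the labels, so p-values measure the spread between these samples, which may be technical.

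In Notch signalling, a ligand on the surface of a cell binds a receptor on its neighbour. The receptor is then cut, first by an ADAM protease and then by gamma-secretase, and its intracellular part moves to the nucleus, joins the DNA-binding protein RBPJ and switches on genes of the Hes and Hey families, which encode transcriptional repressors. In growing retinal vessels, DLL4 on the leading tip cell restrains sprouting in the cells behind it, JAG1 counteracts this signal, NOTCH1 and NOTCH4 are receptors of endothelial cells, and NOTCH3 is the receptor typical of pericytes and smooth muscle cells. Neurons and glia of the retina also use the pathway, so the RNA of whole retina mixes these sources.

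Values are RPKM, reads scaled by gene length and by library depth. Library depth, recovered from the steps of the low values, was 35615501 to 38025623 reads. Retinal neuron markers summed to 8778 to 10973 RPKM in each library, as a retina sample should hold, and 16 lens genes held 5.90% of all reads for Control 3, 0.518% for OIR 2 and at most 0.0546% elsewhere. Genes were tested with limma on log2(RPKM + 1) if they reached 1 RPKM in at least 3 libraries, which 12112 did, and p-values were adjusted over all of these by the Benjamini-Hochberg method. All 10 Notch genes passed this filter, but Dll4, Notch3, Notch4 and Heyl, 4 in number, passed it through the OIR libraries alone, being below 1 RPKM in each Control library.

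All 4 receptors, 2 of the 4 ligands (Dll4 and Jag2) and 1 of the 2 Hey targets (Heyl) were higher in OIR. That is 7 of the 10 genes that rose (limma adjusted p under 0.05), and 0 fell. Dll1, Jag1 and Hey1 did not pass the threshold. Among all genes tested, 11.6% were called higher and 7.22% lower. With no filter, 6 of the 10 were called higher, against 6.73% of the genes above 0 in any library. The OIR values lay above every Control value in 8 of the 10 genes, against 23.6% of all genes tested. They lay below in 0, against 15.0%. Of the 8, Dll4, Notch3, Notch4 and Heyl entered the filter through their OIR libraries alone, which favours this outcome. The others were Jag1, Jag2, Notch1 and Notch2. The share of all genes without the filter was not computed for this count. The median log2 fold change was 0.44 for the 10 genes and 0.03 for all genes tested, with the 4 genes that entered through their OIR level included.

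**Figure D1:**
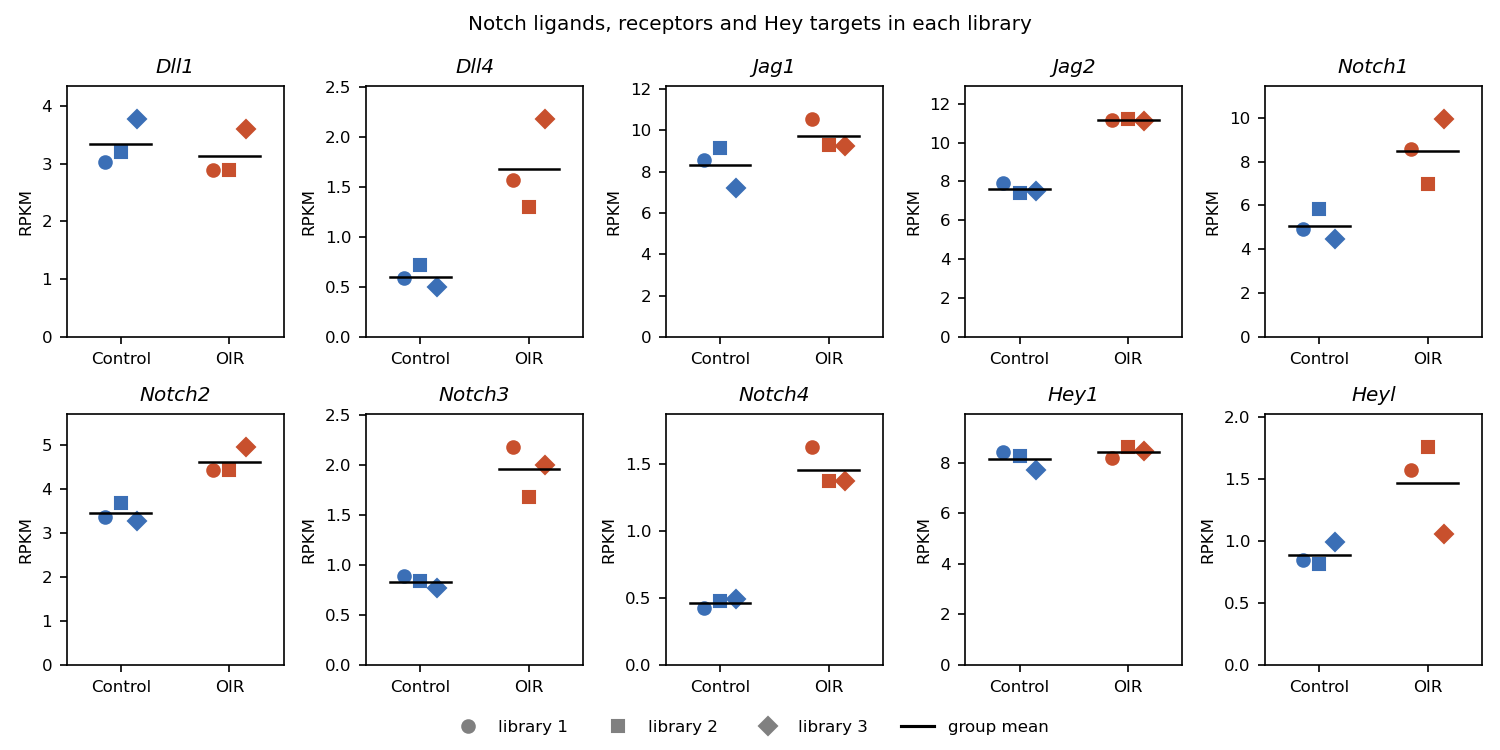
RPKM (vertical axis, from 0) of the 10 Notch genes in each library, with Control in blue, OIR in red, a symbol per library number and the group mean as a bar. The 3 OIR points lie above the 3 Control points in 8 panels and overlap them for Dll1 and Hey1, and OIR 3 lies close to Control 3 for Heyl.

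The promoters of the 3 genes with the largest ratios, Notch4, Dll4 and Notch3, are printed first, to show the DNA before the start of genes that rose together. They are the 250 bases before the start site, 5′ to 3′ on the strand of the gene, from RefSeq on build GRCm38.p6. The build behind the expression values is not given in the sources used here, so the windows are shown for sequence only. Capitals mark CACGCG, a site that Hes and Hey proteins bind, or ACGTG, the core of the hypoxia response element, searched on both strands.
Notch4 (chr17:34564045-34564294, plus strand): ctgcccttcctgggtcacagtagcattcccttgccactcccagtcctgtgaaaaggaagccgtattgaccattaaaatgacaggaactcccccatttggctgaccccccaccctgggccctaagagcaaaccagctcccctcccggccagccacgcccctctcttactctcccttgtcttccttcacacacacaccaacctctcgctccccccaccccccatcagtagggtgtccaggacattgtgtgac
Dll4 (chr2:119325534-119325783, plus strand): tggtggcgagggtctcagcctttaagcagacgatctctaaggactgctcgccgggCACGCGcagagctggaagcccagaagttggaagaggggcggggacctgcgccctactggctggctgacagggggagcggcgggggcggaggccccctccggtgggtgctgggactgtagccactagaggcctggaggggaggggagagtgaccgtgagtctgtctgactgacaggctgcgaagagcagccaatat
Notch3 (chr17:32166891-32167140, minus strand): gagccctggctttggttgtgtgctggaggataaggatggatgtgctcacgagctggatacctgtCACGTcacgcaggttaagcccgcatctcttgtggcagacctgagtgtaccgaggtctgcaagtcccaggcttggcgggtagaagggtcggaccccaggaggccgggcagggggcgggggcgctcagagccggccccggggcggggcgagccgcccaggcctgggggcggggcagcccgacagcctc

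RefSeq promoters were matched for 8 of the 10 genes, in 9 windows, and not for Hey1 and Heyl. CACGCG was present upstream of Dll1, Dll4, Jag1 and Notch2, in 4 of the 9 windows, against 7.62% of all 32851 windows of this length. Its place in Dll4 was 195 bases before the start. ACGTG was present in 1 window, that of Notch3, 186 bases before the start, against 16.6% of all windows. The RBPJ core TGGGAA, found in 21.6% of all windows, the ETS core CCGGAA, found in 12.03%, the E-box CACGTG, which contains ACGTG and was found in 6.02%, and the longer RBPJ site GTGGGAA, which contains TGGGAA and was found in 5.42%, were each present in 0 of the 9. The GC box GGGCGG was present in 5 of the 9, against 32.7% of all windows. CACGCG was thus upstream of genes that rose (Dll4, Notch2) and of genes that did not pass (Dll1, Jag1). Sites outside these windows were not searched. The comparison windows were not matched for base composition, and enrichment of a motif was not tested.

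Dll4, the ligand of tip cells and arteries, changed most among the ligands. Its Control libraries 1, 2 and 3 held 0.588, 0.726 and 0.498 RPKM. Its OIR libraries held 1.57, 1.3 and 2.19 RPKM in the same order. Each OIR library was thus well above each Control library, and OIR 3 was the highest. The mean rose from 0.604 ± 0.115 to 1.68 ± 0.454 RPKM (SD, n = 3 each), a ratio of 2.79. On the log2(RPKM + 1) scale this was a change of 0.73 (SE 0.123, limma adjusted p 0.00415). Since adding 1 to values this low compresses the change, the same fit with 0.1 added gave 1.32. Between 60 and 91 reads lay behind the Control values and between 161 and 281 behind the OIR values, where read numbers are the smallest that fit the value steps and the true ones could be a multiple.

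Jag2, a ligand of the Jagged class, had the tightest OIR values. It was at 7.91, 7.41 and 7.49 RPKM in the Control libraries and at 11.2, 11.2 and 11.1 RPKM in the OIR libraries. The 2 groups lay far apart compared with the spread within each. Jag2 rose from 7.60 ± 0.271 to 11.2 ± 0.0583 RPKM, with a log2 fold change of 0.50 (SE 0.0671, limma adjusted p 0.00129).

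Jag1, the ligand that opposes DLL4 in sprouting vessels, did not pass. Its Control values were 8.58, 9.16 and 7.21 RPKM and its OIR values 10.6, 9.28 and 9.27 RPKM. The groups did not overlap, but the highest Control value, in Control 2, was within a few percent of the 2 lower OIR values. The log2 fold change was 0.20 with a 95% interval from -0.0011 to 0.41 and a limma adjusted p of 0.149. Without Control 3 it was 0.12 (adjusted p 0.318). Control 3, the lowest of the 6 libraries for Jag1, was the library with the highest lens share, and the part of lens RNA in this was not tested.

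Dll1, a ligand of neural progenitors, was at 3.03, 3.20 and 3.77 RPKM in Control and at 2.89, 2.89 and 3.60 RPKM in OIR. Library 3 was the highest in both groups and the groups overlapped. The log2 fold change was -0.07, with a 95% interval from -0.29 to 0.15 and a limma adjusted p of 0.652.

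All 4 receptor genes rose. Notch1, a receptor in tip-cell selection, was at 4.92, 5.83 and 4.46 RPKM in Control and at 8.57, 6.98 and 9.95 RPKM in OIR. OIR 3 was the highest and OIR 2 the lowest of its group, in the same order as for Dll4. Its mean rose from 5.07 ± 0.699 to 8.50 ± 1.48 RPKM, with a log2 fold change of 0.64 (SE 0.122, limma adjusted p 0.00799).

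Notch2, a receptor of the same family, showed the smallest receptor change. It was at 3.36, 3.69 and 3.27 RPKM in Control and at 4.43, 4.43 and 4.96 RPKM in OIR. The groups stood apart by less than 1 RPKM. Its mean rose from 3.44 ± 0.220 to 4.61 ± 0.305 RPKM, with a log2 fold change of 0.34 (SE 0.0813, limma adjusted p 0.0186). The call ended without Control 1 (0.32 on the log2 scale, limma adjusted p 0.0704), without OIR 1 (0.36, 0.0578) or without OIR 3 (0.29, 0.0819).

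Notch3, the receptor of mural cells, was at 0.885, 0.843 and 0.770 RPKM in Control and at 2.18, 1.68 and 2.0 RPKM in OIR. Even the lowest OIR library, OIR 2, was far above the highest Control library. The ratio of the group means was 2.35 and the log2 fold change 0.69 (SE 0.0938, limma adjusted p 0.00144). Reads numbered 229 to 275 in Control and 513 to 674 in OIR, and with 0.1 added in place of 1 the log2 fold change was 1.13.

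Notch4, the receptor most confined to endothelium, was the lowest of the 10 genes in Control and had the largest ratio. It was at 0.422, 0.480 and 0.496 RPKM in Control and at 1.63, 1.37 and 1.38 RPKM in OIR. The Control values lay close together, and so did those of OIR 2 and OIR 3. Its mean rose from 0.466 ± 0.0389 to 1.46 ± 0.149 RPKM, a ratio of 3.14. The log2 fold change was 0.75 (SE 0.0894, limma adjusted p 0.000698), and 1.46 with 0.1 added in place of 1. Reads numbered 104 to 118 in Control and 333 to 400 in OIR. As the strand of the reads is not known, reads of overlapping neighbouring genes cannot be told apart from those of any of the 10 genes.

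The 2 targets differed. Hey1, an endothelial and neural Notch target, stayed within a narrow band, at 8.44, 8.26 and 7.72 RPKM in Control and at 8.21, 8.65 and 8.47 RPKM in OIR. The groups overlapped, and with 662 to 776 reads in every library the log2 fold change of 0.05 had a 95% interval from -0.11 to 0.20 (limma adjusted p 0.673). Heyl, a target found in vessel walls and mural cells, was at 0.848, 0.815 and 0.991 RPKM in Control and at 1.57, 1.76 and 1.06 RPKM in OIR.

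OIR 3 was the lowest OIR library for Heyl, just above Control 3, although it was the highest for Dll4 and Notch1. Heyl rose from 0.885 ± 0.0936 to 1.46 ± 0.364 RPKM, with a log2 fold change of 0.38 (SE 0.116, limma adjusted p 0.0452), 0.64 with 0.1 added in place of 1, and 137 to 292 reads in a library. This call lay near the threshold. It ended when Control 1, Control 2, Control 3, OIR 1 or OIR 2 was left out, with log2 values of 0.36, 0.35, 0.42, 0.34 and 0.29 and limma adjusted p of 0.126, 0.119, 0.0675, 0.161 and 0.0854, and under median-of-ratios scaling, at 0.0669. It also ended with the replicate block, at 0.0569, and with no filter, at 0.0869, and without both lens-rich libraries, Control 3 and OIR 2, at 0.33 on the log2 scale and 0.0777. Without OIR 3 it held, at 0.0162.

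Since RPKM is scaled by gene length, levels of the genes can be ranked, but only as far as the gene lengths used are right. The gene models behind them are not given, and other lengths could change the order. In Control the order by mean RPKM was Jag1, Hey1, Jag2, Notch1, Notch2, Dll1, Heyl, Notch3, Dll4 and Notch4. The ranges of neighbours overlapped for Jag1 and Hey1, Hey1 and Jag2, Notch2 and Dll1, and Heyl and Notch3. In OIR the order was Jag2, Jag1, Notch1, Hey1, Notch2, Dll1, Notch3, Dll4, Heyl and Notch4. Jag2 was first there, with its lowest library above the highest of Jag1. This rests on the lengths: Jag1 had 3982 to 4572 reads in OIR and Jag2 1989 to 2044, at smallest fitting lengths of 11717 and 4841 bases. The ranges overlapped for Jag1 and Notch1 and for Notch1 and Hey1, and the ranges of the last 4 genes overlapped from each to the next.

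The mix of receptors and of ligands differed between the libraries of the groups. These shares were computed after the values above had been seen, and their sizes depend on the same gene lengths. Each was tested with an exact two-sided permutation test, whose smallest p with 3 against 3 libraries is 0.1, with adjustment over 11 measures, so that none could reach 0.05. The summed level of the 4 receptors was 8.996 to 10.8 RPKM in Control and 14.5 to 18.3 RPKM in OIR. Notch1 made up 51.6% ± 2.11 of it in Control and 51.2% ± 3.06 in OIR (SD, n = 3 each), overlapping between the groups (exact permutation p 0.9, adjusted 0.9).

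Notch4 went from 4.78% ± 0.633 to 8.91% ± 1.2 of the receptor sum and Notch3 from 8.52% ± 0.731 to 11.8% ± 1.04, in both cases with every OIR library above every Control library. Notch2 took the opposite course, from 35.1% ± 1.16 to 28.0% ± 2.27. For each of these 3 shares the exact permutation p was 0.1 and the adjusted p 0.122. In every OIR library Notch3 and Notch4 thus made up more of the receptor RNA, and Notch2 less, than in any Control library.

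Among the ligands, Dll4 was 2.93%, 3.54% and 2.63% of the summed level in the Control libraries and 5.99%, 5.27% and 8.36% in the OIR libraries. Set against Jag1, Dll4 was at 7.23% ± 0.605 of the Jag1 level in Control and 17.5% ± 5.30 in OIR, with no overlap (exact permutation p 0.1, adjusted 0.122). The share of Jag2 went from 38.3% ± 1.88 to 43.5% ± 1.67 and that of Dll1 from 16.9% ± 2.64 to 12.2% ± 1.41, both without overlap. For each of these the exact permutation p was 0.1 and the adjusted p 0.122. The share of Jag1, 41.8% ± 3.42 in Control and 37.8% ± 2.46 in OIR, overlapped between the groups. Jag1 and Jag2 remained the bulk of the summed ligand RPKM.

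**Figure D2:**
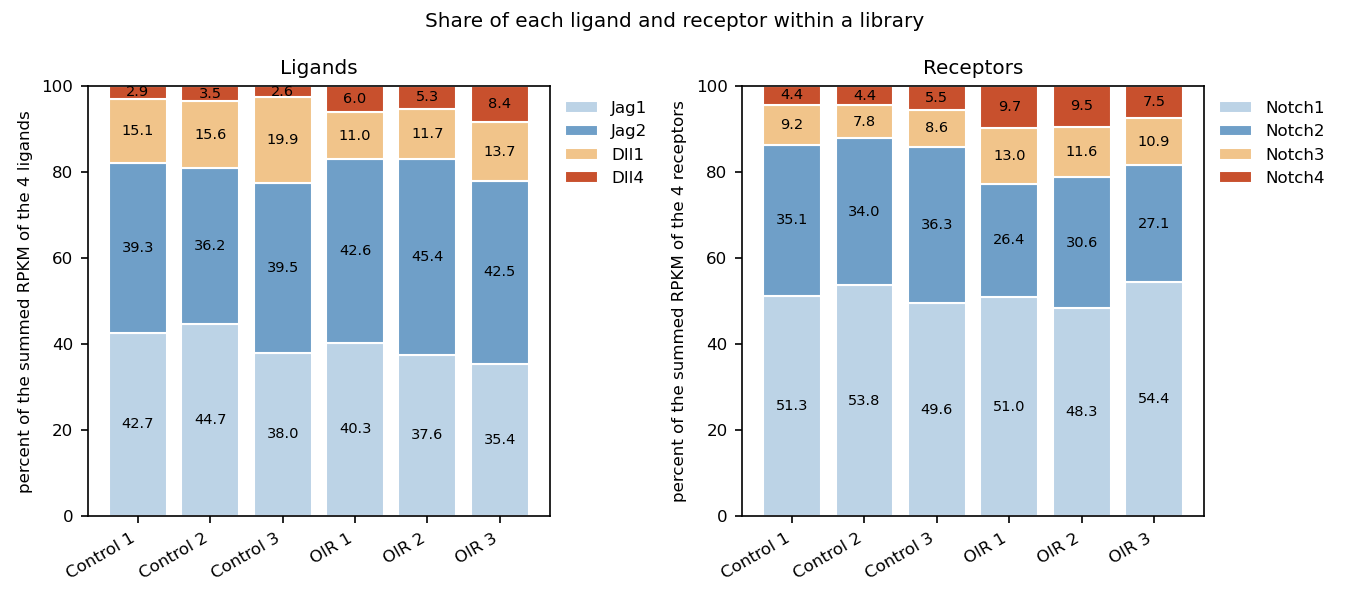
Share (percent, vertical axis) of each ligand in the summed RPKM of the 4 ligands (left) and of each receptor in the summed RPKM of the 4 receptors (right), in each of the 6 libraries. Dll4 takes 5.27% to 8.36% of the ligand sum in OIR against 2.63% to 3.54% in Control, and the share of Notch2 is lower in each OIR library while that of Notch1 overlaps between the groups.

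Markers of vessel cells were higher in the same libraries. In bulk RNA, fewer or more cells of a type and a change of RNA per cell cannot be told apart. Of 12 endothelial markers 11 rose, with Cd34, Cdh5 and Vwf having the smallest adjusted p, while Tek (chosen with its values known) did not pass, at means of 1.38 and 1.3 RPKM. The 12 summed to 40.5 to 43.9 RPKM in Control and 88.4 to 98.6 RPKM in OIR, a ratio of 2.17. Of 9 tested mural markers, Notch3 included, 6 rose, among them Rgs5 and Pdgfrb, and the list summed to 30.1 to 54.6 RPKM in Control and 73.2 to 94.4 RPKM in OIR. All 9 tip-cell markers lay higher in each OIR library than in any Control library and 8 passed the test, with a summed level of 35.8 to 40.8 RPKM in Control and 74.3 to 102.6 RPKM in OIR. In these lists, endothelial Erg and Robo4, mural Notch3 and Des, and tip-cell Esm1 and Pdgfb passed the filter through the OIR libraries alone.

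Markers of other cell types were called too. All 6 tested microglia markers rose, and that list summed to 25.6 to 28.7 RPKM in Control and 74.7 to 98.1 RPKM in OIR. Among 10 Müller glia markers 3 rose and 5 fell, with summed levels of 2753 to 2907 RPKM in Control and 2568 to 2725 RPKM in OIR. Of 11 retinal neuron markers 1 rose and 6 fell. The astrocyte list summed to 22.7 to 27.8 RPKM in Control and 49.1 to 100.4 RPKM in OIR, and 2 of its 4 tested genes rose, Pdgfra and Gfap, the latter a filament of reactive glia that went from 7.25 ± 1.49 to 54.5 ± 23.8 RPKM (limma adjusted p 0.0250). All 3 tested markers of the pigment epithelium lay lower in each OIR library than in any Control library, and 1 of them, Rgr, fell. Of 5 arterial markers only 2 were tested. Gja4 rose, while Efnb2 did not pass, at means of 3.68 and 3.21 RPKM with overlapping groups. None of the markers in these lists was at 0 in all libraries. The part of these cell types in the changes of the 7 Notch genes that rose was not tested. The ratios that follow set levels side by side and cannot assign the RNA of a gene to a cell type.

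Relative to the summed endothelial markers of the same library, the Notch genes spread out. Notch4 was at 0.962%, 1.13% and 1.22% of that sum in the Control libraries and at 1.66%, 1.55% and 1.55% in the OIR libraries. It was the only 1 of the 10 genes whose OIR libraries all lay above Control by this measure. Cldn5 and Esam, at Control means of 11.8 and 8.81 RPKM, weighed most in the sum and had OIR to Control ratios of 1.88 and 1.35. Ratios of the 12 markers ran from 0.94 (Tek) to 3.57 (Vwf), with Robo4 at 3.14, the same as Notch4. Notch4 thus rose within the range of the single markers. Its log2 difference was 0.53 by the sum and 0.41 by a geometric mean of the markers. The exact two-sided permutation p was 0.1, the smallest possible, and 0.167 adjusted over the 10 genes. Dll4 was at 1.34%, 1.70% and 1.23% in Control and at 1.59%, 1.47% and 2.45% in OIR, so that the groups overlapped (exact permutation p 0.3, adjusted 0.333). The overlap of Dll4 rests on Control 2, the highest Control value, without which every OIR value lay above Control.

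Notch3, at 1.96% ± 0.0601 in Control and 2.12% ± 0.193 in OIR (SD, n = 3 each), overlapped between the groups (exact permutation p 0.4, adjusted 0.4), an overlap that rests on OIR 2, its lowest OIR value. Notch1, at 11.97% ± 1.49 and 9.26% ± 1.70, and Heyl also overlapped between the groups. The overlap of Notch1 rests on OIR 3, at 11.2% against a lowest Control value of 11.01% in Control 3, and without either library every OIR value lay below Control. That of Heyl rests on OIR 2, at 1.99%, without which its OIR values also lay below Control. Dll1, Jag1, Jag2, Notch2 and Hey1 lay below Control in every OIR library. The marker sum was 2.17 times as high in OIR, while the median log2 fold change of all genes tested was 0.03. A gene of unchanged RPKM therefore lies below Control by this ratio, and the share of all genes that do so was not computed. Hey1 went from 19.2% ± 0.166 to 9.21% ± 0.777 of the sum (exact permutation p 0.1, adjusted 0.167). The RPKM of Hey1 itself overlapped between the groups, while the marker sum was 2.17 times as high in OIR. Against the mural markers without Notch3, Notch4 alone lay above Control in every OIR library, and Dll1, Jag1 and Hey1 lay below. The mural sum was 2.03 times as high in OIR, so the same limit holds there. With a geometric mean of the mural markers 0 genes lay above, and without Control 1 there were 2, Notch4 and Notch3. By the mural sum Notch3 was at 2.17% ± 0.805 in Control and 2.33% ± 0.0550 in OIR. Control 1, 2 and 3 held Notch3 at 3.03%, 2.06% and 1.43%, and the lowest OIR value was 2.26%. Smooth muscle genes were low in Control 1. Acta2 was at 0.882 RPKM there against 6.48 and 17.5 in Control 2 and 3, and Tagln at 0.763 against 7.87 and 7.06. The overlap of Notch3 by this measure thus rests on Control 1.

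**Figure D3:**
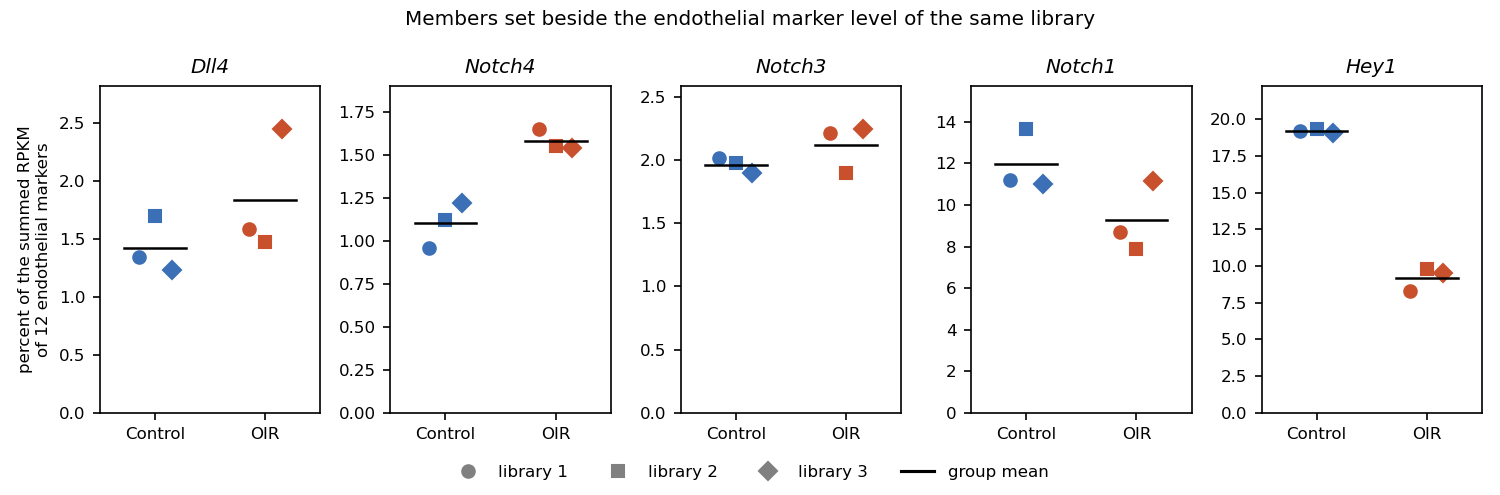
Level of 5 Notch genes as a percent of the summed RPKM of 12 endothelial markers in the same library (vertical axes from 0), with Control in blue, OIR in red, a symbol per library number and the group mean as a bar. The Notch4 points of OIR, 1.55% to 1.66%, lie above all Control points, those of Dll4, Notch3 and Notch1 overlap with Control, and those of Hey1 lie below.

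Of 49 other pathway genes, 42 reached the filter, of which 5 rose, 1 fell and 36 did not pass, that is 11.9% higher against 11.6% of all genes tested. Their median log2 fold change was 0.08. Egfl7, a secreted endothelial protein that binds Notch receptors, rose from 6.07 ± 0.936 to 12.6 ± 1.87 RPKM (log2 fold change 0.94, limma adjusted p 0.00129). It was the only 1 of these 6 calls that held under every alternative. Dner, a neuronal Notch ligand of atypical structure, fell from 40.4 ± 3.92 to 28.3 ± 6.01 RPKM (limma adjusted p 0.0422).

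The enzymes that ready ligands and receptors showed few calls. Neurl1a, a ubiquitin ligase of ligand uptake, rose from 21.3 ± 1.51 to 27.0 ± 3.56 RPKM (limma adjusted p 0.0433). None of the 5 glycosylation genes passed with limma. Of these, Pofut1, which adds the first fucose to Notch, was at 9.53 ± 0.925 and 11.3 ± 0.223 RPKM and the fucose-extending enzyme gene Mfng at 2.26 ± 0.0581 and 2.87 ± 0.429 RPKM. Of 8 tested genes of receptor cleavage, only the protease gene Adam17 passed, rising from 4.68 ± 0.145 to 5.93 ± 0.338 RPKM (limma adjusted p 0.0254).

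In the nuclear complex, Maml1, a co-activator, rose from 6.52 ± 0.718 to 8.07 ± 0.260 RPKM (limma adjusted p 0.0468). Rbpj itself (chosen with its values known) did not pass, with means of 1.5 ± 0.0729 and 1.63 ± 0.105 RPKM. This low level rests on a smallest fitting length of 28807 bases, at 1456 to 1901 reads in a library. None of 9 genes of receptor turnover passed. Numbl was at 9.62 ± 0.178 and 11.2 ± 0.372 RPKM and Dtx2 at 3.16 ± 0.393 and 3.86 ± 0.245 RPKM.

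None of the 5 other targets tested passed the limma threshold. Hey2, an arterial Notch target, was at 6.05 ± 0.133 and 7.43 ± 1.03 RPKM, and Nrarp, a feedback inhibitor of the pathway, at 6.58 ± 0.663 and 8.09 ± 0.981 RPKM, in both cases with every OIR library above every Control library and with limma adjusted p of 0.0819 and 0.0840. Hes1 and Hes5, targets in progenitors (chosen with their values known), were at 8.69 ± 1.26 and 8.21 ± 0.619 RPKM and at 1.27 ± 0.299 and 0.879 ± 0.292 RPKM.

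Several of these calls ended when a single library was left out. Such fits have fewer libraries, and over all genes they called 513 to 1754 higher, against 1407 with all libraries. The log2 fold change of Adam17 stayed at 0.26 to 0.33 over them, against 0.29 with all libraries. The call of Dner ended without Control 1, Control 2, Control 3, OIR 1 or OIR 3, at limma adjusted p of 0.132, 0.125, 0.0568, 0.115 and 0.134, and that of Neurl1a without the same libraries, at 0.103, 0.0666, 0.118, 0.171 and 0.143. Adam17 lost its call without Control 1, Control 2, OIR 1 or OIR 3, at 0.0935, 0.0678, 0.105 and 0.105. Maml1 lost its call without each of the 6 libraries, at 0.0513 to 0.153.

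**Figure D4:**
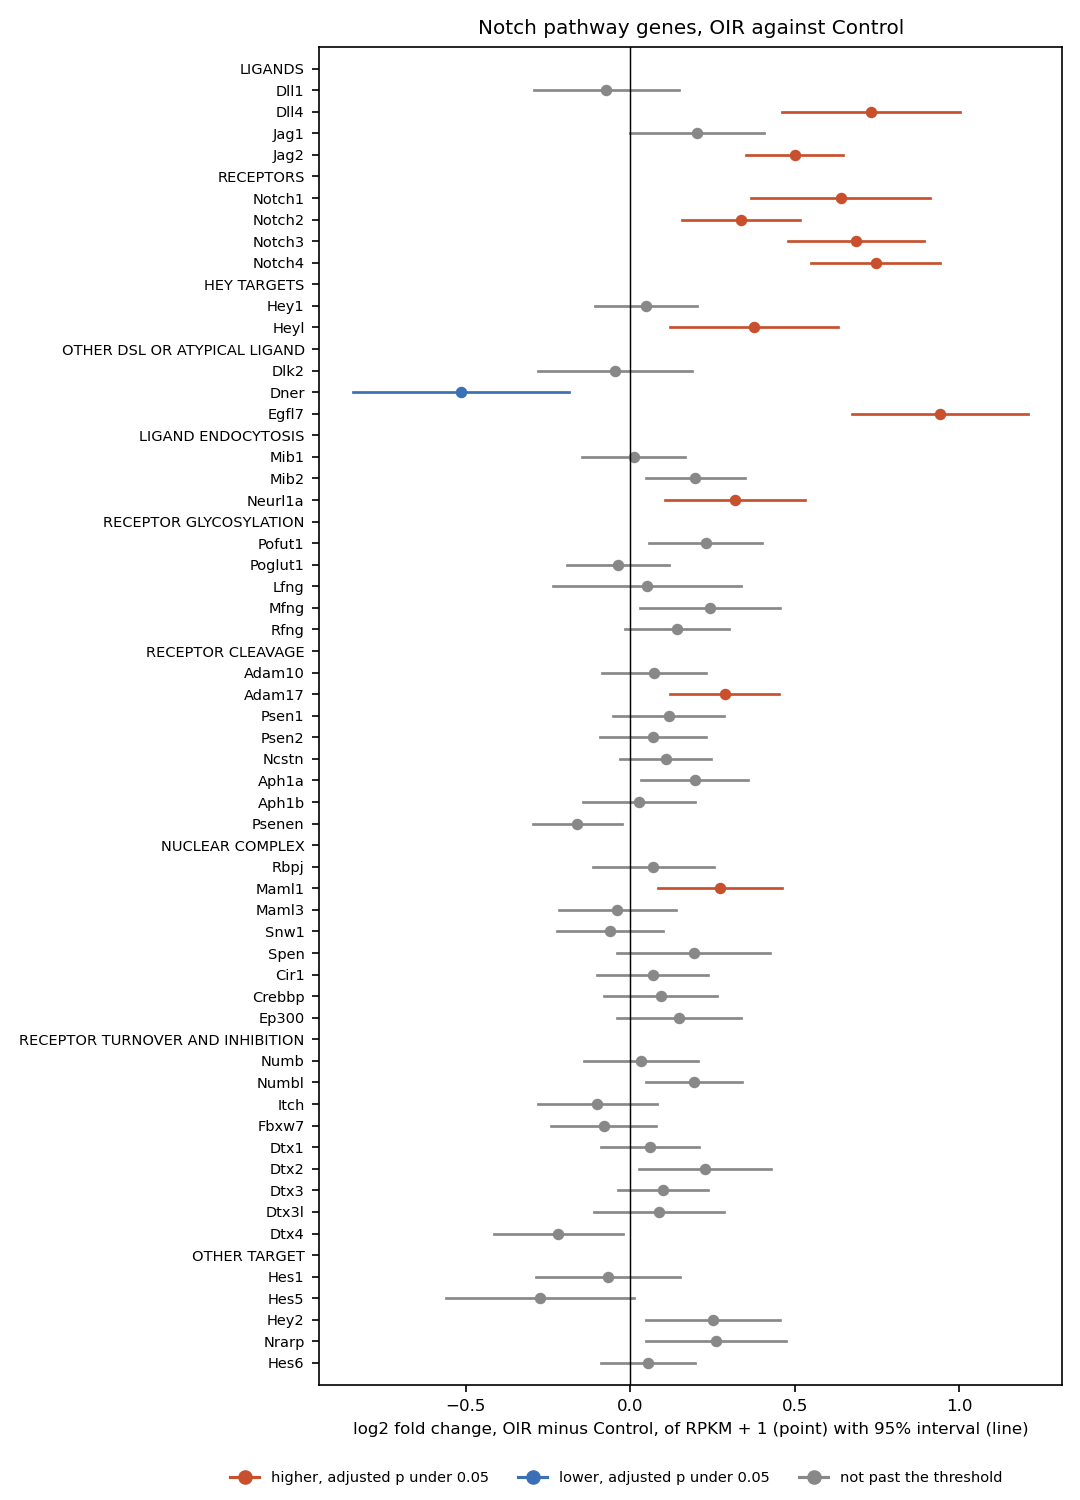
Log2 fold change of RPKM + 1 in OIR against Control (horizontal axis; point with 95% interval) for the 10 Notch genes and the other tested pathway genes reported here, by role, with red for higher and blue for lower at an adjusted p under 0.05 and grey for the others. The 4 receptors, Dll4, Jag2, Heyl and Egfl7 lie right of 0 in red, and most intervals of the cleavage, nuclear and turnover genes include 0.

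For the Notch genes that passed, the genes with the most similar pattern over the 6 libraries were looked up among 11509 tested genes, by Pearson's r of log2(RPKM + 1). The libraries share the OIR and Control split, so high values are common, and r over 0.95 was reached by 560 genes for Dll4 and 404 genes for Notch4. The closest to Dll4 were Trp53i11 (r = 0.998), Rgcc (0.996) and Taf15 (0.995). The closest to Notch4 were Stag3 (0.9996), Bag6 (0.999) and Cd93 (0.997), the last an endothelial surface protein gene with means of 1.84 and 8.05 RPKM in the 2 groups. Those of Notch3 were Tctn1, Psd and Cmtm3 (each 0.998).

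Rgcc, listed above for Dll4 after Trp53i11, came first for Notch2 (r = 0.997), followed by Odf2 (0.997) and Mettl17 (0.996). Jag2 was closest to Fxyd5 (0.999), Metap1d (0.999) and Trpm4 (0.998), and Notch1 to Spint2 (0.999), Septin9 (0.997) and Tatdn3 (0.997). For Heyl, with its low value in OIR 3, only 15 genes had r over 0.95, led by Iqcd (0.990), Urb2 (0.990) and Aplnr (0.987), the gene of the apelin receptor, with means of 1.44 and 3.12 RPKM.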

How the data were processed

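The authors deposited 1 RPKM value per gene symbol and library. Per the submitters' processing notes, reads were handled with TopHat2 2.0.12 and Bowtie2 2.0.6. Build, gene models and counter: not given in the sources used here. The library protocol in the labels describes duck material, so library type and strand are uncertain. Library depth was recovered from the steps of the RPKM values with GENCODE M21 transcript lengths, used for nothing else. Reads per gene are those at the smallest gene length giving whole numbers in all 6 libraries (within 0.02 of a read), found for 99.96% of 17953 genes above 0. The values are not counts, so limma 3.58.1 in R 4.3.3 (trend and robust, two-sided, group as the only term) was fitted to log2(RPKM + 1) of all 12112 genes tested, and checked on simulated data. Same-numbered libraries of the groups did not deviate together in 2 of 3 pairs (correlations 0.222, -0.440 and -0.414), so the main fit has no block. The genes and lists were chosen with earlier results of these data known. All 10 genes are named. Of the tested pathway genes, 1 is counted but not reported here. Other pathway genes are named by smallest adjusted p, up to 4 past the threshold per role or 2 where none passed, markers up to 3 per list, and the 3 most similar genes per gene that passed, leaving out gene models and sex-linked genes. Alternatives were another scaling, pseudocount and filters, the replicate block, libraries left out, and limma-voom on recovered reads. Between replicate libraries of a group, the mean chi-square of recovered reads per gene was 8.32 to 251, highest in pairs with Control 3. Each is above what sampling noise gives on average, but a few genes can raise such a mean. No p-value was computed from it.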

Additional observations from a re-analysis of the deposited data

How the results depend on the processing

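Of the 7 Notch genes called higher, 5 (Dll4, Jag2, Notch1, Notch3 and Notch4) were called under every alternative that tested them, and 5 to 7 were called over the 13 alternatives, with 0 lower in each. Notch4 was not tested with a filter on a mean of at least 1 RPKM. With no filter 6 of the 10 were higher, against 6.73% of all genes. Without Control 3 and OIR 2, the lens-rich libraries, Dll1 and Hey1 changed sign, to log2 fold changes of 0.039 and -0.0013, neither called. The replicate block left 6 Notch genes and 3 other pathway genes higher. It ended the calls of Heyl, Neurl1a and Maml1, and no other call of a named pathway gene. Over all genes, 1407 were higher and 875 lower. With limma-voom on recovered reads 1451 were higher and 984 lower. The lower count was 529 with no filter and 1943 without the lens-rich libraries. With single libraries left out the counts ran from 513 to 1754 higher and from 212 to 1293 lower. Median-of-ratios scaling put 49.4% of calls on the higher side against 61.7%. Among the other pathway genes, 1 to 5 were higher and 0 to 3 lower with single libraries left out, and 2 were lower with median-of-ratios scaling, 0 with no filter and 4 without the lens-rich libraries. Relative to endothelial markers, 1 or 2 genes lay above Control with single libraries left out, and 2 without the lens-rich libraries, while 5 or 6 lay below with single libraries left out, 7 without the lens-rich libraries and 7 with a geometric mean. Relative to mural markers, 0 lay above with a geometric mean of the markers and 1 or 2 with single libraries left out, while 3 to 6 lay below, and 7 without the lens-rich libraries. The cause was not tested. Both marker sums were higher in every OIR library than in any Control library, so a gene of unchanged RPKM lies below Control by either ratio. Depth limits Dll4, Notch4 and Heyl most, with as few as 60, 104 and 137 reads.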

Other observations

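Of the 49 other pathway genes, 7 stayed below the filter and were not tested: Dlk1, Dll3, Neurl1b, Aph1c, Rbpjl, Maml2 and Hes7. Dlk1, a non-canonical ligand gene, had 4, 3 and 0 reads in the Control libraries and 27, 54 and 49 reads in the OIR libraries, at most 0.306 RPKM. Hes7 had 4, 1 and 2 reads in Control and 7, 8 and 7 in OIR, and the ligand gene Dll3 had 26, 14 and 40 reads in Control and 11, 23 and 25 in OIR. Rbpjl was listed at 0 in every Control library and in OIR 1, with 1 read in OIR 2 and 5 in OIR 3. Markers of dividing cells, 5 genes, were also below the filter. They summed to 0.448, 0.431 and 1.81 RPKM in Control 1, 2 and 3 and to 2.02 to 3.21 RPKM in OIR. Control 3 was the library with the highest lens share, and the part of lens RNA in its higher sum was not tested.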
